A study of Bos taurus with 8 samples.

Results

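FYN, 5 other Src family tyrosine kinases (SRC, YES1, LYN, LCK and FGR) and CSK, the kinase that holds the family in check, were followed in bovine blastocysts grown with or without serum lipids. These 7 of the 15229 genes with a symbol on the array were chosen by name, and every probe that the platform's annotation gives to one of them was taken, which gave 9 probes. YES1 had 3 probes (a, b and c below) and the other 6 genes had 1 each. FYN itself was selected on the contrast described here, in which its probe EMBV3_28279 ranked 3 by p among 28844 tested probes. Its ratio of lipid over control is therefore a description and carries no test. The relatives entered by family and not by their own ratios.

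The lipid group consisted of 4 pools of Holstein blastocysts made in vitro, which received lipids extracted from serum from the 8 to 16 cell stage on day 3 until day 7. The control group consisted of 4 pools that received no lipids. Both groups shared in vitro maturation and fertilization, ovaries from a slaughterhouse and control culture until day 3, and both were collected 170 hours after fertilization, with 10 blastocysts per pool. The labels record serum albumin from Sigma for whichever group was in Cy5 on an array, so both groups carry it. Each lipid pool was hybridised against a control pool on 2 two-colour arrays of opposite dye orientation, so that there were 8 arrays, numbered 1 to 4 on slide 87 and 1 to 4 on slide 88. Arrays of the same number were treated as the same pair of pools (n = 4 pool pairs). A pool mixes all cells of the blastocyst, so fewer cells of a type and less RNA per cell cannot be told apart.

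Src family kinases are cytoplasmic tyrosine kinases that sit on the inner face of membranes through attached fatty acids and relay signals from integrins, growth factor receptors and immune receptors. CSK phosphorylates a tyrosine near their carboxyl end, which folds them into an inactive form, and several phosphatases remove that phosphate. In mouse oocytes, Fyn is known for its part in cortical and spindle organisation, and in mouse tissues it also acts in fatty acid oxidation.

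For each array and channel a detection limit was set from 757 negative control spots, at 2 SD over their mean. These limits were 182 to 273 in Cy5 and 217 to 294 in Cy3 on 7 arrays. Array 1 of slide 87 had limits of 461 in Cy5 and 958 in Cy3, and 20.5% of its probes passed in either channel, against 55.2% to 73.8% on the others. Probes above the limit in either channel on at least 4 arrays were tested (28844 of 43794 probes). All 12 trophectoderm markers and all 5 inner cell mass markers on the array were among them, each list with a median log2 ratio of lipid over control of 0.03.

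Of the 7 genes, 5 passed this filter on dim probes: FYN, YES1 through probe a, LYN, LCK and CSK. SRC, FGR and YES1 probes b and c did not. FYN passed through its lipid channels, since its control channels alone were above the limit on fewer than 4 arrays. LYN, LCK and CSK were above the limit in the lipid channel on all 8 arrays and in the control channel on all 8. YES1 probe a was above it in the lipid channel on 7 arrays and in the control channel on 6. FYN was above it in the lipid channel on 7 arrays and in the control channel on 3, namely arrays 2 and 4 of slide 87 and array 2 of slide 88. The lipid channel led by at least 4 arrays, as for FYN, at 1.11% of tested probes. That lead depended on the limit: with one set from the median and MAD of the same spots, FYN was above it on 8 arrays in the lipid channel and on 5 in the control channel. SRC passed on 1 array in each channel. FGR passed on 0 arrays in the lipid channel and on 2 in the control channel. YES1 probe b passed on 2 in each, and probe c on 1 in the lipid channel and 0 in the control channel. Over all 9 probes, 42 lipid channels and 38 control channels were above the limit, of 144 in all. With the limit from the median and MAD the order turned, with 43 lipid and 47 control channels. Over all expression probes, the share above the limit from the mean and SD was 20.5% to 73.1% per array in the lipid channel. In the control channel it was 14.5% to 64.7%. The Cy3 channel had the larger share on every array except array 1 of slide 87. Nothing about these kinases is read from the counts.

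**Figure D1:**
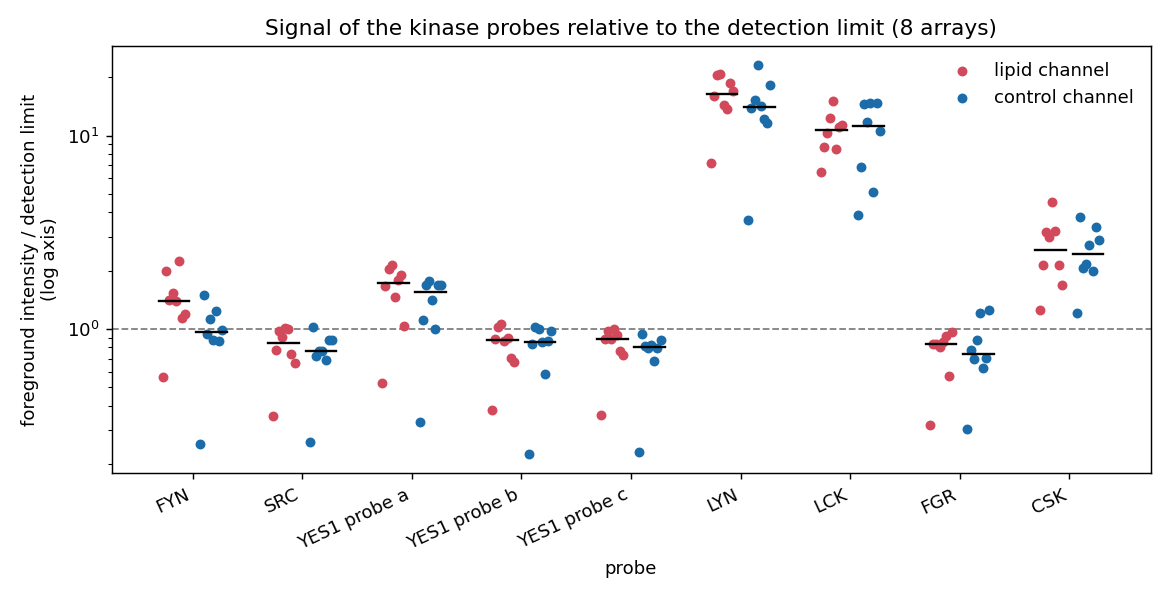
Intensity of each member probe over the negative control limit of the same array and channel, on 8 arrays (points, log axis). Lipid channels are red and control channels blue, black bars are medians, and the dashed line marks the limit. LYN, LCK and CSK lie above the line on all 8 arrays in both channels. FYN lies above it on 7 arrays in the lipid channel and 3 in the control channel. SRC and FGR lie above it on at most 2 arrays in either channel.

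FYN was dim. Its intensity over arrays 1 to 4 of slide 87 and then 1 to 4 of slide 88 was 258, 418, 323, 334, 322, 519, 244 and 326 in the lipid channel. In the control channel it was 243, 439, 177, 205, 189, 307, 196 and 238. Set against the limit of the same array and channel, the lipid signal had a median of 1.40 times the limit and the control signal a median of 0.961 times. This multiple was higher for lipid on all 8 arrays, whereas the raw intensities of the groups overlapped. On array 2 of slide 87 the raw control intensity was above the raw lipid intensity, where lipid was in Cy5 and control in Cy3. The multiple of the limit was higher for lipid on 7 arrays for YES1 probe a and on 4 to 6 for the other member probes. FYN was picked from this contrast, so nothing is read from its 8 arrays.

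After background correction and dye normalization, the log2 ratio of lipid over control for FYN was 0.81, 0.51, 0.43 and 0.44 on slide 87 and 0.62, 0.54, 0.72 and 0.75 on slide 88. Every array was thus above 0, which held for 0.849% of tested probes. The 4 pool pairs gave 0.72, 0.52, 0.57 and 0.60, with a mean of 0.60 ± 0.04 (SE, n = 4) or 1.52-fold. A ratio above 0 in all 4 pool pairs was found for 4.75% of tested probes, and a mean of at least 1.5-fold higher for 0.34%. Since FYN was picked from this contrast, nothing is read from these shares. FYN ranked 91 by the height of its mean ratio and 3 by p, and its SD between pool pairs, 0.08, was undercut by 13.0% of tested probes. The ratio averaged 0.70 where lipid was in Cy5 (0.51 to 0.81) and 0.51 where lipid was in Cy3 (0.43 to 0.62). The dye term of FYN, 0.09 on the log2 scale, was exceeded in size by 60.3% of tested probes.

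YES1 is broadly expressed and, like FYN, is anchored by added palmitate. Its probe a gave array ratios of 0.09, 0.91, 0.18 and 0.27 on slide 87 and -0.10, 0.57, 0.28 and -0.62 on slide 88. The pool pairs were at -0.01, 0.74, 0.23 and -0.17, with a mean of 0.20 ± 0.20 (SE, n = 4; 95% interval -0.21 to 0.61). This interval and those below come from the limma fit, whereas each SE comes from the 4 pool pair values alone. The arrays of pool pairs 1 and 4 pointed in opposite directions, and without pool pair 2 the mean was 0.02. The limma test over all probes gave an adjusted p of 1. The lipid pool of pair 2 also carried a summed intensity of 44728 for the cumulus and granulosa cell markers, against 12591 in its control pool. In the other 3 pairs these sums were 9407 to 14478 in lipid pools and 8960 to 17789 in control pools. Of the 15 tested markers of that list 13 had a mean ratio above 0, with a median of 0.19, and LHCGR, TNFAIP6 and FOXL2 were above the limit on 0 arrays. By pool pair the list median was -0.09, 0.74, 0.01 and 0.19. The highest ratios in pair 2 were those of LUM (3.70), VIM (2.96) and DCN (1.83), whereas CYP19A1 (-0.24) and HAS2 (-0.18) were below 0 there. DCN was above the limit in 4 lipid channels and 1 control channel, so its lipid channels carried it past the filter. Which cells gave the high sum, and their part in the YES1 value, was not tested. Probes b and c of YES1, both below the limit on most arrays, averaged -0.00 ± 0.16 and 0.11 ± 0.04 (SE, n = 4 each).

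LYN, a kinase of blood cells and many epithelia, was measured far above its limit, with a median of 16.5 times the limit in the lipid channel and intensities of 2623 to 4454 in the control channel. Its array ratios were 0.10, -0.18, 0.59 and 0.02 on slide 87 and -0.08, -0.18, 0.76 and 0.12 on slide 88. The pool pairs were at 0.01, -0.18, 0.67 and 0.07, with a mean of 0.14 ± 0.18 (SE, n = 4; 95% interval -0.24 to 0.52; limma adjusted p of 1). Pool pair 3 alone stood high, on both of its arrays, and without it the mean was -0.04. LCK, known mainly as the kinase of the T cell receptor, had medians of 10.7 times the limit in the lipid channel and 11.2 times in the control channel. Its array ratios were -0.14, 0.01, -0.41 and 0.18 on slide 87 and -0.05, 0.37, -0.36 and 0.35 on slide 88. The pool pairs, -0.10, 0.19, -0.38 and 0.27, averaged -0.01 ± 0.15 (SE, n = 4; 95% interval -0.33 to 0.31; limma adjusted p of 1). Both arrays of a pool pair had the same sign for LCK in all 4 pairs, so that the pairs differed among themselves while their mean lay near 0.

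LYN, LCK and FGR are best known from leukocytes. Of the 16 leukocyte markers on the array 9 were tested, with a median log2 ratio of -0.03. CD79A, ITGB2 and CSF1R were above the limit on 0 arrays, whereas CD48 was above it on all 8 in each channel. The summed marker intensity was 5138, 6061, 5789 and 3967 in lipid pools 1 to 4 and 4666, 5867, 6086 and 4374 in control pools 1 to 4. The groups overlapped, and the part of such cells in the LYN and LCK signals was not tested.

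SRC, the founding member, and FGR, a kinase of myeloid cells, were too dim to be tested. SRC intensities ran from 157 to 234 in the lipid channel and from 137 to 300 in the control channel. FGR intensities ran from 121 to 261 in the lipid channel and from 131 to 305 in the control channel. In both channels the median of either gene was below the limit. The pool pair ratios of SRC averaged 0.03 ± 0.06 and those of FGR -0.19 ± 0.26 (SE, n = 4 each), with FGR between -0.84 and 0.35.

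CSK had array ratios of -0.78, -1.17, 0.62 and 0.50 on slide 87 and 0.61, 0.30, -0.63 and -0.58 on slide 88. These signs followed the dye and not the group: the mean was -0.79 on the 4 arrays with lipid in Cy5 and 0.51 on the 4 with lipid in Cy3. Its dye term, -0.65, was exceeded in size by 1.87% of tested probes, against a median size of 0.125. With the dyes averaged out, the pool pairs were at -0.09, -0.43, -0.01 and -0.04, and the mean was -0.14 ± 0.10 (SE, n = 4; 95% interval -0.38 to 0.10; limma adjusted p of 1). All 4 pairs were below 0, as were those of 6.65% of tested probes. Without pool pair 2 the mean was -0.04. The lipid pool of that pair had the high summed intensity for the listed cumulus and granulosa markers, and which cells gave it was not tested. Whether the CSK value of that pair is linked to the marker sum was not tested.

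**Figure D2:**
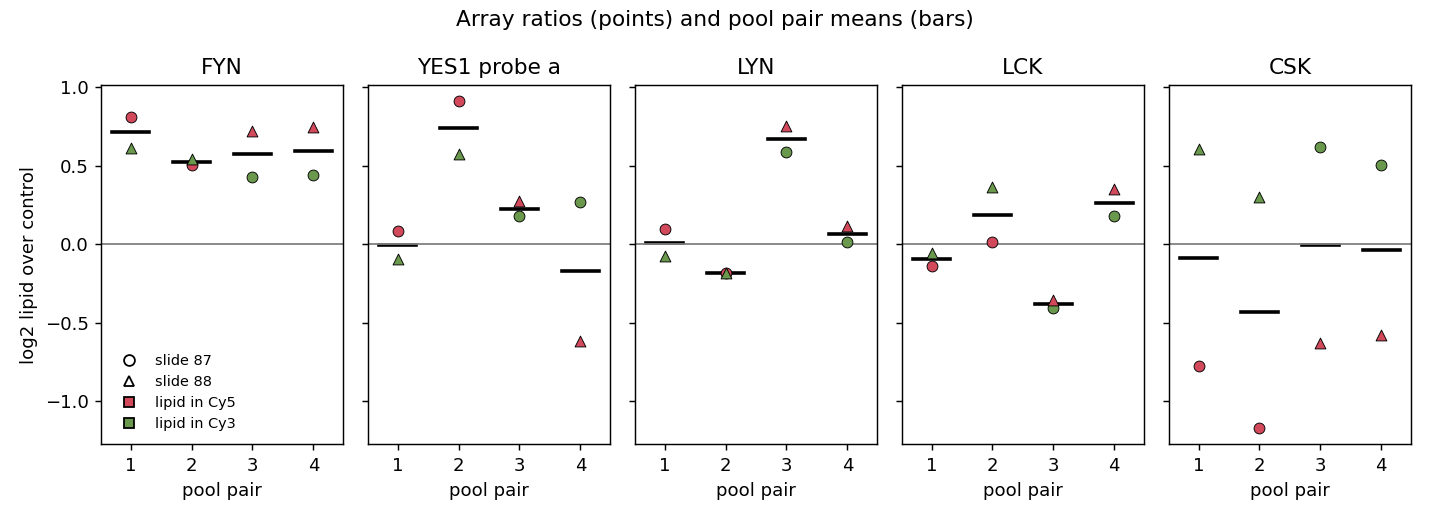
Log2 ratio of lipid over control on each array (points; circles slide 87, triangles slide 88, red lipid in Cy5, green lipid in Cy3) and its mean per pool pair (bars) for the 5 genes that passed the filter on dim probes. The 8 points of FYN lie between 0.43 and 0.81, those of YES1, LYN and LCK lie on both sides of 0, and those of CSK split by dye. The 2 arrays of a pair fall on opposite sides of 0 for YES1 in pool pairs 1 and 4 and for LYN in pool pair 1.

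None of the 4 tested relatives passed limma's test with Benjamini-Hochberg adjustment, and neither did any other probe: 0 of 28844 passed an adjusted p of 0.05, a share of 0%, with 0.996 the lowest adjusted p. At an unadjusted p under 0.05 there were 1287 probes, 597 higher and 690 lower with lipid. None of the 4 relatives was among them (unadjusted p of 0.199 to 0.963 in the same limma fit). The upper ends of their 95% intervals were 0.61 for YES1, 0.52 for LYN, 0.31 for LCK and 0.10 for CSK.

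FYN was then set against its relatives within each pool pair, as a difference of log2 ratios. FYN minus YES1 was 0.72, -0.22, 0.35 and 0.77 in pool pairs 1 to 4, with a mean of 0.40 ± 0.23 (SE, n = 4). FYN minus LYN was 0.71, 0.71, -0.10 and 0.53, with a mean of 0.46 ± 0.19. FYN thus fell below YES1 in pool pair 2 and below LYN in pool pair 3. FYN minus LCK was 0.81, 0.34, 0.96 and 0.33 (0.61 ± 0.16), and FYN minus CSK was 0.80, 0.96, 0.58 and 0.63 (0.74 ± 0.09). FYN was the higher of the pair in all 4 pool pairs against LCK and CSK, and on 8 of 8 arrays against LCK but 6 of 8 against CSK. Against the median of the 4 relatives the differences were 0.76, 0.52, 0.46 and 0.58, with a mean of 0.58 ± 0.06 (SE, n = 4). With all 6 relatives and no filter on dim probes the mean was 0.60. These differences contain the FYN ratio on which FYN was selected, so whether FYN differed from its relatives was described and not tested.

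**Figure D3:**
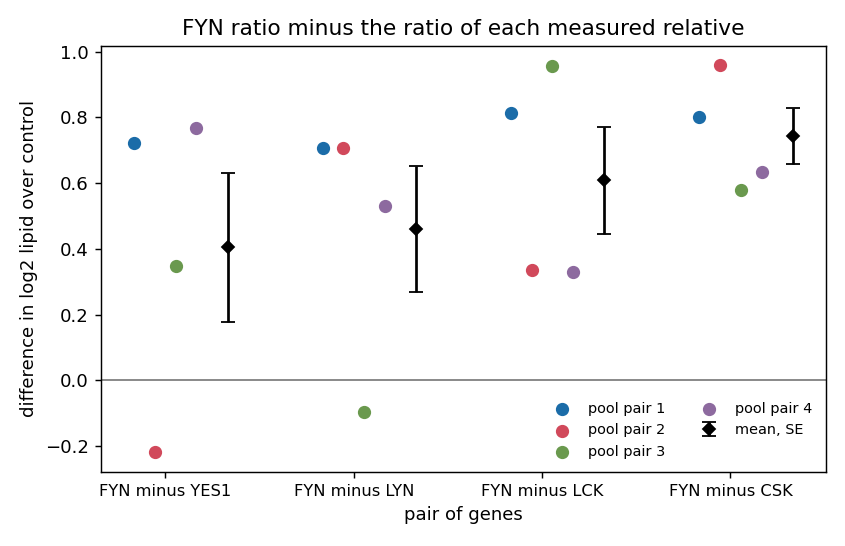
Difference between the log2 lipid over control ratio of FYN and that of each tested relative in each of the 4 pool pairs (points), with the mean and its SE. The differences from LCK and CSK lie above 0 in all 4 pool pairs, those from YES1 and LYN in 3 of 4.

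The levels showed how much the pools themselves varied. On the normalized log2 intensity scale, FYN was at 7.83, 8.54, 7.70 and 7.99 in lipid pools 1 to 4 and at 7.11, 8.01, 7.13 and 7.40 in control pools 1 to 4. Each lipid pool was above the control pool hybridised with it, but control pool 2 was above lipid pools 1, 3 and 4, so the groups overlapped. LCK was at 11.72, 10.78, 11.12 and 11.42 in lipid pools and at 11.82, 10.59, 11.50 and 11.16 in control pools, with the lowest level of each group in pool 2. LYN was at 11.76, 11.55, 12.01 and 12.12 in lipid pools and at 11.75, 11.73, 11.34 and 12.05 in control pools. YES1 probe a was at 7.77, 8.20, 8.47 and 8.14 in lipid pools and at 7.77, 7.45, 8.25 and 8.31 in control pools. CSK was at 9.54, 8.87, 8.97 and 8.91 in lipid pools and at 9.62, 9.30, 8.98 and 8.95 in control pools, with pool 1 the highest of each group. For all 5 genes the groups overlapped.

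**Figure D4:**
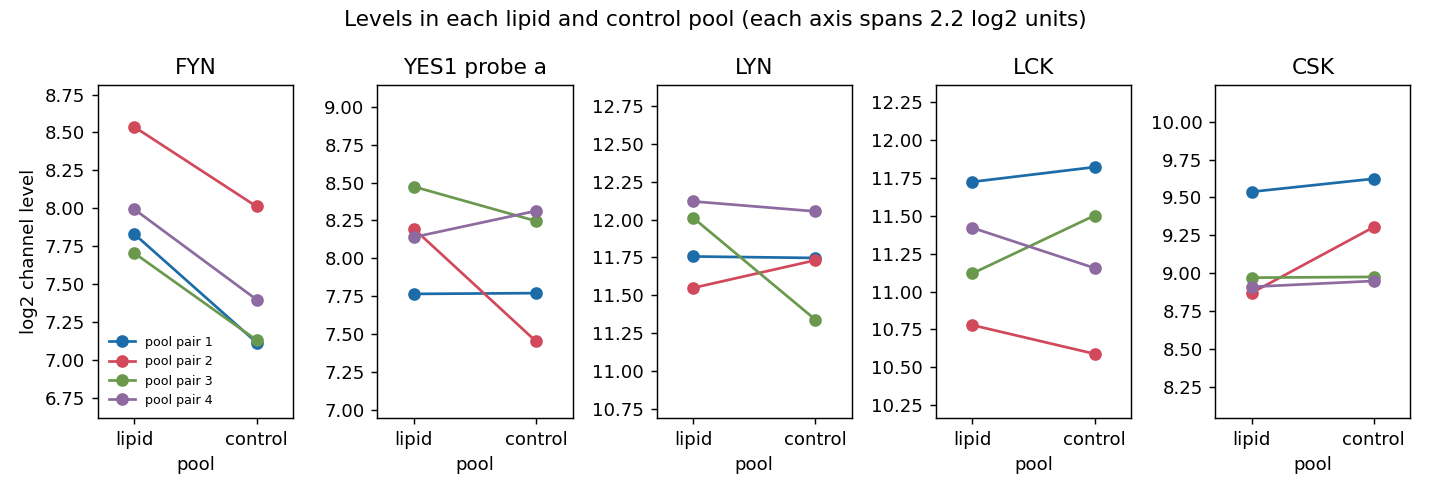
Normalized log2 intensity of the 5 genes that passed that filter in each lipid pool (left of each panel) and control pool (right), with lines joining the pools hybridised together. All 4 FYN lines are higher at the lipid end, by 0.52 to 0.72, the CSK lines are lower there by 0.01 to 0.43, and the lines of YES1, LYN and LCK run in different directions.

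Genes around the family were taken from 4 lists with 84 symbols, which gave 61 tested genes, each through its brightest probe. None was called by limma, and 4 had an unadjusted p under 0.05 (6.56%), against 5.37% of all 11685 tested genes. Of the 61 genes 31 were above 0, and 49.9% of all genes were. Among 4 other kinases related to SRC, 3 were above 0, with a median log2 ratio of 0.03. The smallest p values there belonged to TEC (-0.07 ± 0.18, SE, n = 4), BTK (0.03 ± 0.03) and MATK (0.03 ± 0.04). TEC and BTK are kinases of lymphoid cells, and MATK is a relative of CSK. MATK was above the limit in 4 lipid channels and 1 control channel, so its lipid channels carried it past the filter.

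Among 11 phosphatases and regulators, 5 were above 0 and the median was -0.00. PTPRA, a receptor phosphatase that removes the inhibitory phosphate of SRC and FYN, was at -0.02, -0.47, -0.44 and -0.36 in the pool pairs, with a mean of -0.32 ± 0.10 (SE, n = 4). PTPN2, a phosphatase that acts on SRC kinases and JAK kinases, averaged -0.30 ± 0.13. Both missed the threshold, with a limma adjusted p of 0.996 each. SLA2, an adaptor that dampens T cell receptor signals, averaged 0.10 ± 0.09.

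Among 14 receptors and membrane partners, 4 were above 0 and 10 below, with a median of -0.04. MET, the receptor of hepatocyte growth factor, averaged -0.20 ± 0.09, EGFR, the receptor of epidermal growth factor, 0.21 ± 0.13, and ITGB1, the integrin beta subunit shared by many matrix receptors, -0.11 ± 0.11 (SE, n = 4 each; limma adjusted p of 0.996 to 1). EGFR was above the limit in 7 lipid channels and 3 control channels, so, as with FYN, its lipid channels carried it past the filter. CD36, a fatty acid receptor that signals through FYN and LYN, is named here after its value was seen and averaged 0.02 ± 0.09.

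Among 32 adaptors and substrates, 19 were above 0, the median was 0.01 and the means ran from -0.45 to 0.33. An unadjusted limma p under 0.05 was found for 2 of the 32. CTNNB1, the beta-catenin of adherens junctions, averaged 0.33 ± 0.14, and CRK, an adaptor that binds phosphorylated BCAR1 and PXN, 0.20 ± 0.12. Neither passed the threshold (SE, n = 4 each; limma adjusted p of 0.996 each).

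**Figure D5:**
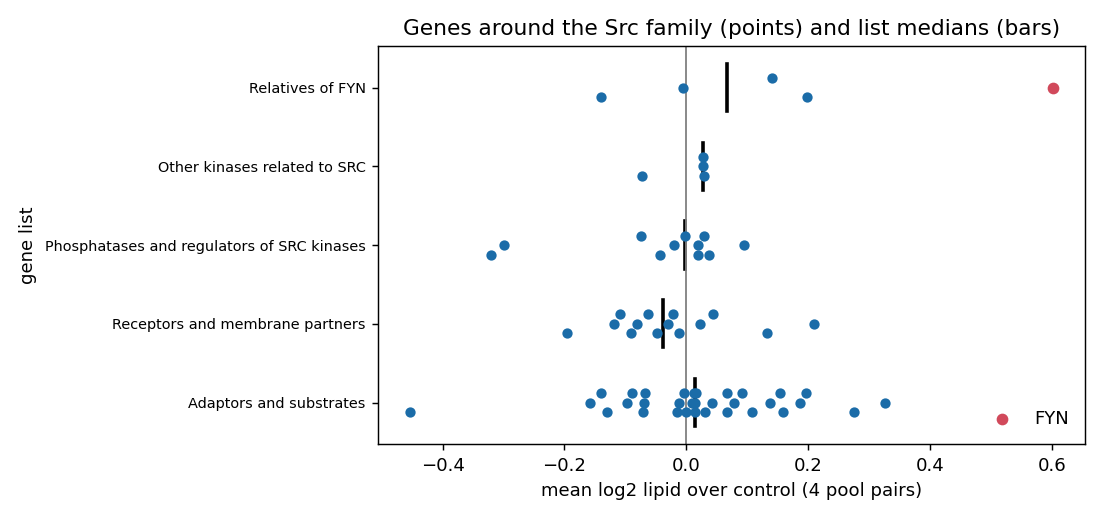
Mean log2 ratio of lipid over control for the tested relatives of FYN and for the tested genes of 4 lists around the family (points), with the median of each row (black bar). FYN (red) lies at 0.60, and the list genes lie between -0.45 and 0.33, with list medians from -0.04 to 0.03.

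The genes with ratios nearest in size to those of FYN were picked by the smallest root mean square difference of the log2 ratios over the 8 arrays, with each probe's dye term removed. They were RAB34, a small GTPase of vesicle traffic (0.177), B2M, the light chain of MHC class I (0.198), LANCL2, a lanthionine synthetase C-like protein (0.217), TSPAN3, a tetraspanin (0.236), and PGR, the progesterone receptor (0.242). Their mean ratios were 0.47, 0.44, 0.48, 0.38 and 0.46 in that order. A second tested probe existed for 3 of them and gave 0.27 for RAB34, 0.01 for B2M and -0.12 for LANCL2, so for B2M and LANCL2 the probes of 1 gene did not show the same ratio. This measure picks probes with a similar mean and not a shared course over the arrays: the correlation with FYN over the same 8 arrays, which include both arrays of each pool pair, was 0.73 for TSPAN3, 0.70 for B2M, 0.61 for RAB34, 0.52 for PGR and -0.18 for LANCL2. PGR was above the limit in 6 lipid channels and 2 control channels, so, as with FYN, its lipid channels carried it past the filter. By the same measure LYN was at 0.569, YES1 at 0.635, LCK at 0.671 and CSK at 0.759. The genes named above were chosen for the smallest values, so nothing is read from that gap. FYN has a single probe, so no second probe of it could be compared.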

How the data were processed

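The scanner files deposited by the authors give for each spot, per the file headers, its mean intensity and the median intensity of its local background at 532 nm (Cy3) and 635 nm (Cy5). Per the labels' protocols, RNA was amplified by T7 polymerase and coupled to the dyes. Per the submitters' processing notes, limma was used. The authors' deposited table of processed values was taken as log2 ratios. Its columns correlated with the ratios computed here at 0.980 to 0.991 and had medians of -0.03 to 0.02. How it was normalized, how its background was corrected and its log base are not stated in those sources, so it was used as an alternative.

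Of 45212 spots, 43794 were expression probes. The platform's annotation gives 1 gene symbol to 21790 of them and none to 22004. All 7 member symbols were found in the RefSeq gene table. Intensities were corrected with normexp (offset 50), then array by array with loess (weight 0 for control spots), and turned to log2 lipid over control (limma 3.58.1, R 4.3.3). Pool levels were put on 1 scale by Aquantile. Arrays of the same number were averaged: their deviations from the means of their dye orientation correlated at 0.613 to 0.766, and those of other array pairs at -0.323 to -0.0257. Deviations sum to 0 within an orientation, so positive values for the former push the latter below 0. The negative range is thus no separate support for the pairing. The labels do not state this pairing, nor whether pools came from separate fertilization runs, so p-values measure the spread between these pools. The test of pool pairs against 0 used limma (lmFit, eBayes, two-sided, Benjamini-Hochberg over 28844 probes, threshold 0.05). The fit was tested on simulated data. The number of pool pairs (n = 4) limits the precision.

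FYN, its relatives, the lists and the marker genes were chosen with earlier results of these data known. All members were named, the 3 genes of smallest p in each list, and the 5 genes most like FYN. The result of 1 list gene that this rule names is not reported here. Alternatives covered background correction, normalization, the filter on dim probes, the pairing, the prior, each slide and each pool pair.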

Additional observations from a re-analysis of the deposited data

Results flagged for a closer look

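Of 35 sets of 4 pool pair values searched for a value far from the other 3, 2 held one, and chance gives about 1 in 20. TEC, a kinase related to the Src family, was at -0.61 in pool pair 3 and between 0.10 and 0.11 in the others. The median log2 ratio of the trophectoderm markers was 0.25 in pool pair 1 and between -0.01 and 0.00 in the others. FYN had its highest ratio, 0.72, in the same pool pair 1, and the part of trophectoderm cells in it was not tested. Array 1 of slide 87, which gave 0.81 for this pair, had FYN below the limit in both channels. There FYN was at 0.56 times the limit in the lipid channel and 0.25 times in the control channel. Against the limit from the median and MAD these multiples were 1.48 and 1.08.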

How the results depend on the processing

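The mean log2 ratio of FYN was 0.45 without background correction, 0.81 with normexp at offset 0 and 0.51 in the authors' deposited table. FYN minus the median of its relatives was 0.44 without background correction and 0.78 at offset 0. FYN was not tested where probes had to pass the limit on all 8 arrays. LCK, whose mean lay near 0, turned above 0 with median centring (0.0070), in the authors' deposited table (0.00068), on slide 88 alone (0.077) and without array 1 of slide 87 (0.0047), and ran from -0.097 to 0.12 with single pool pairs left out. LYN ran from -0.036 to 0.25 with single pool pairs left out. CSK was at 0.032 without array 1 of slide 87, an alternative chosen after seeing the data that leaves pool pair 1 with a single dye orientation.

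Without the replicate block, that is with 8 arrays and no pairing, 7 probes passed the limma threshold. That setting counts both arrays of a pool pair as separate replicates. FYN was 1 of the 7, and since it was picked from this contrast, nothing is read from that. With a replicate block and a dye term per slide 0 passed, with 0.0668 the lowest limma adjusted p and 2365 at an unadjusted p under 0.05. No relative of FYN and no list gene passed under any alternative run. With the limit from the median and MAD, the 9 probes together were above it in 43 lipid and 47 control channels. The limits of array 1 of slide 87 then were 174 in Cy5 and 226 in Cy3. Signal near the negative controls limits what can be said of FYN, SRC, FGR and YES1.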
